A study of Mus musculus with 6 samples.

Results

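The genes described here encode the 3 families of proteins that are stacked beneath the membrane of excitatory synapses: Shank1, Shank2 and Shank3 (SHANK proteins), Dlg4 and Dlg2 (PSD-95 and PSD-93), and Dlgap1, Dlgap2, Dlgap3 and Dlgap4 (SAPAP1 to SAPAP4). They were taken by gene name from the count table, which gave 9 genes of 55367 rows, and all 9 had enough counts to be tested. RNA-seq was performed on cortical neurons from C57BL/6J mouse pups at postnatal day 1 (P1) after 2 days in vitro, with 3 libraries from WT pups and 3 from Fmr1-KO pups. The Fmr1-KO pups carry a disrupted Fmr1 gene, whose protein FMRP is absent in fragile X syndrome, and the labels name no other allele and no drug treatment in either genotype. The study asked which mRNAs change when FMRP is missing, in particular those removed by nonsense-mediated mRNA decay (NMD), and every comparison below is Fmr1-KO relative to WT.

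At an excitatory synapse, PSD-95 and PSD-93 sit closest to the membrane, where their PDZ domains hold the tails of NMDA receptors and of the auxiliary subunits of AMPA receptors. Their guanylate kinase-like domain binds SAPAP proteins, the C-terminal tail of SAPAP binds the PDZ domain of SHANK, and SHANK proteins bind Homer and cortactin and so reach metabotropic glutamate receptors and actin. The scaffold is assembled as neurons mature. FMRP is known to bind many mRNAs of this layer, and variants of SHANK3, SHANK2 and DLG2 are linked to autism, intellectual disability or schizophrenia in people.

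Short ends of proteins hold some of these layers together, and the DNA that encodes such ends can be compared between paralogs. In GENCODE M21 on GRCm38, a coding transcript was taken for each gene, by its mark as principal isoform first and by coding length second. It was thus not always the longest, and that of Dlgap1 has 682 codons beside 1060, 977 and 992 for Dlgap2, Dlgap3 and Dlgap4. The last 9 codons and the stop codon read as follows, 5′ to 3′ on the coding strand. The last 4 codons, which encode the tail that enters a PDZ domain in the 4 SAPAP and 2 NMDA receptor genes, are in capitals.
Dlgap1: tacatccccgaggcgCAGACCCGGCTCtga
Dlgap2: tacatccctgaggccCAGACGCGGCTCtga
Dlgap3: tacatccccgaggccCAGACCAGGCTGtga
Dlgap4: tatgtccccgaggccCAGACCAGGCTCtaa
Dlgap5: ggtgacctcattctcTTCTCACCACTAtga
Grin2a: aaaatgcctagtattGAATCTGATGTCtaa
Grin2b: aaactttctagtattGAGTCTGATGTCtga
The 4 SAPAP genes share 9 of the 12 bases in capitals and 11 of the 15 bases before them. Dlgap5, a paralog whose protein works at the mitotic spindle and not at the synapse, shares only 3 to 4 of those 12 bases with any one of them. Grin2a and Grin2b, which encode NMDA receptor subunits that bind PSD-95, share 11 of 12 bases with each other and 3 to 5 of 12 with the SAPAP genes.

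A second sequence is shown because it links Dlg4 to NMD. In GENCODE M21, 1 of 22 Dlg4 transcripts (Dlg4-205) is annotated as a target of NMD, 1 of 9 Shank3 transcripts is, and none is annotated for the other 7 genes. Dlg4-205 lacks exon 18 of the 20 exons of Dlg4-203, a coding exon of 110 bases at chr11:70043658-70043767 (GRCm38, plus strand), present in 7 of 7 coding transcripts that span it and part of the guanylate kinase-like domain.
Dlg4 exon 18: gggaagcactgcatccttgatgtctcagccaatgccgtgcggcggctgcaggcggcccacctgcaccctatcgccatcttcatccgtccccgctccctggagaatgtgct
Its length leaves a remainder of 2 when divided by 3, so an mRNA without it is read out of frame. The stop codon of Dlg4-205 lies at chr11:70044285-70044287, 80 bases before the last exon junction, whereas that of Dlg4-203 lies in the last exon. As background, the polypyrimidine tract binding proteins PTBP1 and PTBP2 are known to keep this exon out of Dlg4 mRNA in cells that are not yet mature neurons. The exon makes up 0.83% of the exonic bases of Dlg4, and the counts are summed over the whole gene, so they do not tell transcripts with it from those without it.

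The libraries held 30348556 to 35126207 counts, 16976 genes were tested and no library stood apart by depth. Fmr1 itself was at 118.3, 112.2 and 109.6 CPM (read counts scaled to the TMM-adjusted library total) in WT and 54.2, 61.4 and 56.7 CPM in Fmr1-KO, in the direction that the labels give, so the Fmr1-KO level averaged 50.6% of WT. The cells had been depleted of astrocytes and myelin before plating, per the study's methods. Markers of astrocytes still summed to 4745 to 5541 CPM over all libraries and those of the oligodendrocyte lineage to 1075 to 2046 CPM. Those of neurons summed to 2943 to 3825 CPM. These sums are over different genes, so they do not give the proportions of the cells. No marker of any list was at 0 in all libraries. Across all genes tested, 21.9% were called lower and 20.7% were called higher in Fmr1-KO at an adjusted P under 0.05 by edgeR, 42.6% in all, and the median log2 fold-change was 0.01. The labels name no culture or litter, so the P values measure the spread between these libraries only.

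Of the 9 scaffold genes, 8 were lower in Fmr1-KO and 0 were higher, against the 21.9% of all tested genes that were lower. Their median log2 fold-change was -0.42. In the same 8 genes every Fmr1-KO library was below every WT library, against 26.3% of all tested genes (25.4% had every Fmr1-KO library above). The exception in both counts was Dlgap4. When the change was required to exceed 1.2-fold, 7 of the 9 genes were lower, Dlgap3 and Dlgap4 being the others, against 7.89% of all tested genes (5.2% were higher, 13.1% either way). The genes that fell did so by unequal amounts, from 84.6% of the WT level in Dlgap3 to 63.5% in Dlg2.

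**Figure D1:**
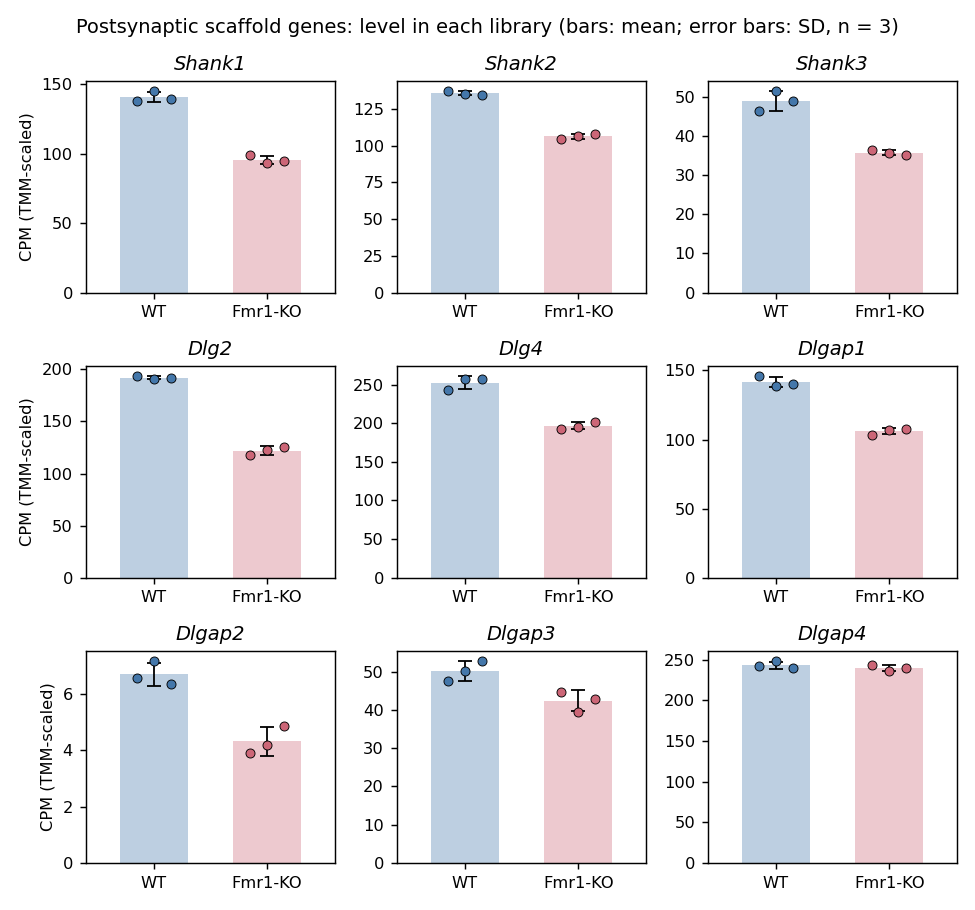
Level of each of the 9 scaffold genes in every library, in TMM-scaled CPM, with points for libraries and bars for the mean and SD of each genotype (n = 3). The WT and Fmr1-KO points are apart in 8 panels and overlap in the panel for Dlgap4.

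Of the membrane-proximal pair, Dlg2 had the larger decrease. Dlg2 encodes PSD-93 (also called chapsyn-110), a close paralog of PSD-95 that binds NMDA receptors and potassium channels, and lies at chr7:90476672-92449247. It was at 193.3, 191.1 and 191.8 CPM in WT and at 117.5, 122.6 and 125.9 CPM in Fmr1-KO. The genotypes were far apart beside the spread between replicates, which had an SD of 1.12 CPM in WT and 4.23 CPM in Fmr1-KO (n = 3 each). Its log2 fold-change of -0.65 (SE 0.03, 95% confidence interval -0.72 to -0.59, edgeR adjusted P 1.26e-12) was the largest of the 9 with all libraries included. Without WT replicate 3 or Fmr1-KO replicate 3 that of Dlgap2 was larger, reaching -0.73 beside -0.68 for Dlg2 in the latter case. A part of its exons, 1.38% of the exonic bases, overlaps the predicted genes Gm45131 and Gm45159 on the same strand, where reads may not be assigned to either gene.

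Dlg4 encodes PSD-95, the most abundant scaffold of mature excitatory synapses, and lies at chr11:70016942-70047522. Its levels were 243.1, 257.4 and 257.1 CPM in WT and 193.1, 194.9 and 202.1 CPM in Fmr1-KO. Every Fmr1-KO value was lower than the lowest WT value by more than the range within either genotype. The log2 fold-change was -0.36 (SE 0.03, edgeR adjusted P 9.58e-09). The mRNAs of both proteins known to act on exon 18 rose. Ptbp1 rose from 191.6 ± 4.40 to 223.9 ± 2.00 CPM (SD, n = 3), by 0.22 on the log2 scale (edgeR adjusted P 3.11e-06). Ptbp2 rose from 289.6 ± 9.59 to 308.8 ± 3.18 CPM (SD, n = 3), by 0.09 (edgeR adjusted P 0.0187). Ptbp3, a relative of both, had a log2 fold-change of -0.00 (edgeR adjusted P 0.965). The call of Ptbp2 was lost without the WT replicates numbered 2 and 3, each left out alone, and without Fmr1-KO replicate 1 (edgeR adjusted P 0.0936, 0.0696 and 0.0511). Whether the use of exon 18 differed between genotypes was not tested.

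The SAPAP genes, which encode the middle layer, ranged most widely. Dlgap1 (SAPAP1, chr17:69969073-70821413) was at 145.8, 139.0 and 139.9 CPM in WT and 103.6, 106.6 and 107.9 CPM in Fmr1-KO. The lowest WT library was thus well above the highest Fmr1-KO library, and the log2 fold-change was -0.42 (SE 0.03, edgeR adjusted P 1.79e-09). Dlgap2 (SAPAP2, chr8:14095865-14847680) was the rarest of the 9, with 229, 237 and 212 reads in WT and 127, 128 and 170 reads in Fmr1-KO. These corresponded to 6.59, 7.17 and 6.35 CPM in WT and 3.91, 4.18 and 4.89 CPM in Fmr1-KO. The genotypes did not overlap, but the small counts left a wide interval around its log2 fold-change of -0.63 (SE 0.11, 95% confidence interval -0.85 to -0.41, edgeR adjusted P 5.63e-05).

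Dlgap3 (SAPAP3, chr4:127169204-127237022) is best known for the repetitive grooming of mice that lack it. It was at 47.4, 50.1 and 52.6 CPM in WT and at 44.7, 39.4 and 42.9 CPM in Fmr1-KO. The highest Fmr1-KO library lay just under the lowest WT library. Its log2 fold-change was -0.24 (SE 0.05, edgeR adjusted P 0.000499), and it was not called for a change above 1.2-fold. Dlgap4 (SAPAP4, chr2:156613705-156764363) was at 241.8, 248.1 and 240.1 CPM in WT and 243.3, 236.6 and 239.5 CPM in Fmr1-KO. The libraries of the genotypes were interleaved. Its log2 fold-change was -0.02 (SE 0.03, edgeR adjusted P 0.607), and the 95% confidence interval of the change ran from -5.54% to 2.84% of the WT level. With scaling by library totals alone the estimate was 0.01 (edgeR adjusted P 0.874). Dlgap4 was also the only 1 of the 9 genes on a list of 1027 NMD targets that the study had drawn up in N2A neuroblastoma cells. The study states that this list would miss NMD targets of the cultured cortical cells that N2A cells do not express. Absence from it therefore does not show that a gene yields no NMD target.

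Of the SHANK genes, which encode the deepest layer, all 3 were lower. Shank1 (chr7:44310253-44360572) was at 138.2, 145.1 and 139.3 CPM in WT and 99.1, 93.7 and 94.5 CPM in Fmr1-KO. It had the largest decrease of the family, with a log2 fold-change of -0.56 (SE 0.03, 95% confidence interval -0.63 to -0.48, edgeR adjusted P 4.02e-11). Shank2 (chr7:144001928-144424494) was at 137.1, 135.4 and 134.4 CPM in WT and 104.5, 106.3 and 108.3 CPM in Fmr1-KO. The genotypes did not overlap, and the log2 fold-change was -0.35 (SE 0.03, edgeR adjusted P 1.26e-08). Shank3 (chr15:89499623-89560261), the gene lost in Phelan-McDermid syndrome, was at 46.5, 51.4 and 48.9 CPM in WT and 36.5, 35.5 and 35.1 CPM in Fmr1-KO. No value of one genotype came near the other, and the log2 fold-change was -0.45 (SE 0.05, edgeR adjusted P 5.88e-08).

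**Figure D2:**
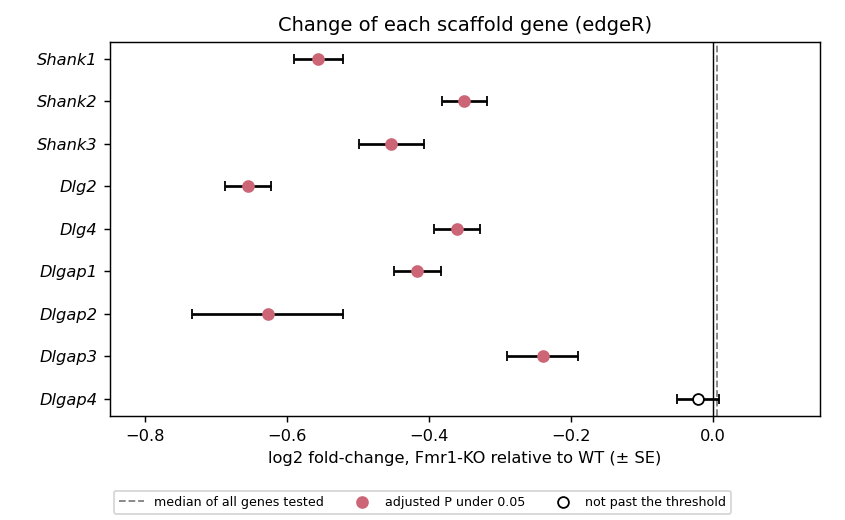
Log2 fold-change (Fmr1-KO relative to WT) of each scaffold gene with its SE, from the fit across all genes. Filled points passed an adjusted P of 0.05 and the dashed line is the median of all genes tested. Dlg2 (-0.65) and Dlgap2 (-0.63) lie farthest to the left, and Dlgap4 (-0.02) lies close to the median of all genes.

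Markers of neurons moved in the same direction as the scaffold genes. The marker counts here stand beside 21.9% lower and 20.7% higher among all tested genes. All 10 of 10 neuronal markers were lower in Fmr1-KO, with a median log2 fold-change of -0.64, and their summed level fell from 3721 to 3825 CPM in WT to 2943 to 3096 CPM in Fmr1-KO. That sum in Fmr1-KO was 80.2% ± 2.05 (SD, n = 3) of the WT mean, and the sum of the 9 scaffold genes was 78.3% ± 0.903 (SD, n = 3). The medians were less alike, at -0.64 for the markers and -0.42 for the scaffold genes. The neuronal sum is weighted to Map2 and Tubb3, the most abundant of the 10 markers, which had log2 fold-changes of -0.11 and -0.28. Nefl fell most, with -1.90. In these mixed cultures, fewer neurons and less RNA per neuron cannot be told apart. Excitatory neuron markers had 3 lower and 5 higher genes of 8 and a sum of 591 to 622 CPM in Fmr1-KO beside 600.2 to 611 CPM in WT. Slc17a7, a rarer marker of that list, fell from 20.2 to 3.69 CPM (log2 fold-change -2.45). Markers of GABAergic interneurons had 4 lower and 4 higher of 8 and a sum at 110.7%. That sum is weighted to Dlx1, at 257.0 CPM in WT (log2 fold-change 0.46). Sst, another interneuron marker, fell from 43.6 to 7.53 CPM (-2.53).

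Markers of other cells moved as well, and their counts stand beside the same shares of all tested genes (21.9% lower, 20.7% higher). Proliferating cell markers were higher in 8 of 8 genes, with a sum at 176.4% of WT. Of the 8 neural progenitor markers, 4 were higher and 4 did not pass, with a sum at 114.6%. That sum is weighted to Vim, at 1203 CPM in WT (log2 fold-change 0.22). Eomes, a rarer marker, rose from 10.5 to 72.8 CPM (2.79). Oligodendrocyte lineage markers were lower in 8 of 8 genes (57.5% of WT), microglial markers in 6 of 7 (57.7%), and astrocyte markers were lower in 5 and higher in 1 of 8 (89.8%). Of the endothelial and mural markers, 5 of 7 were tested, of which 1 was lower and 3 were higher (123.4%). The part of these shifts in the scaffold results was not tested.

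**Figure D3:**
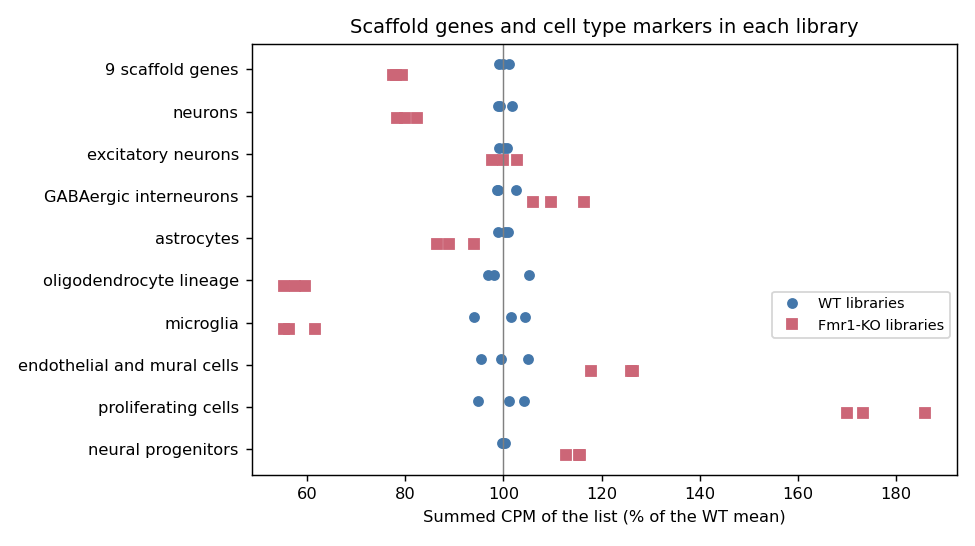
Summed CPM of the 9 scaffold genes and of each marker list in every library, as a percent of the WT mean of that list. The scaffold genes (78.3%) and neuronal markers (80.2%) lie below 100% in all 3 Fmr1-KO libraries, whereas proliferating cell markers (176.4%) lie above it.

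To compare levels between genes, TMM-scaled counts were divided by the kilobases of all annotated exons, giving CPM per kb of exon. On this scale Dlgap4 was the highest of the 9 genes in WT, at 28.8 ± 0.498 (SD, n = 3), followed by Dlg4 at 19.1 ± 0.616 (SD, n = 3). Shank1 (13.4), Shank2 (12.6), Dlg2 (11.8) and Dlgap3 (11.1) came next, close together, and Dlgap1 (7.91), Shank3 (5.32) and Dlgap2 (1.09) were the lowest. No neighbours in this order had overlapping libraries in WT.

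In Fmr1-KO the order at the top and bottom was as in WT and the middle differed. Dlgap4 (28.4 CPM per kb) stood 1.91 times above Dlg4 (14.8), compared with 1.51 times in WT. Shank2 (9.88), Dlgap3 (9.37) and Shank1 (9.11) followed, and the libraries of Dlgap3 overlapped those of both its neighbours. Dlg2 (7.49) came below them, then Dlgap1 (5.93), Shank3 (3.89) and Dlgap2 (0.703). The order of the middle genes depended on the length used. With the longest transcript in place of all exons, a choice made after the data were seen, Dlg2 ranked 3 and Dlgap1 ranked 4 in both genotypes, with overlapping libraries in Fmr1-KO, while Dlgap4, Dlg4, Shank3 and Dlgap2 kept their ranks.

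Summed over a family on the scale per kb of exon, SHANK was at 31.3 ± 0.566 in WT and 22.9 ± 0.227 in Fmr1-KO (SD, n = 3), or 73.0% of WT. PSD-95 with PSD-93 was at 30.9 ± 0.551 and 22.3 ± 0.601 (SD, n = 3), or 72.4%. The SAPAP sum was at 48.9 ± 0.524 and 44.4 ± 0.920 (SD, n = 3), or 90.8%, since Dlgap4 made up most of it. The difference between these percentages was not tested.

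The makeup of each family was compared by an exact permutation test over libraries, which with 3 against 3 cannot give a P below 0.1. Of 8 shares compared, 6 did not overlap between genotypes and reached that smallest P (exact permutation test, 2-sided, P = 0.1, adjusted P = 0.133). None could thus pass the threshold. Shares within a family are parts of the same sum, so a rise in one lowers the others and they are not separate results. By level and not by share, every Fmr1-KO library was below every WT library in 26.3% of all tested genes and above in 25.4%. Dlgap4 made up 58.9% ± 0.729 (SD, n = 3) of the SAPAP sum in WT and 64.0% ± 0.572 (SD, n = 3) in Fmr1-KO, a difference of 5.04 percentage points. Dlg4 made up 61.8% ± 0.905 of the sum with Dlg2 in WT and 66.5% ± 0.387 in Fmr1-KO (SD, n = 3). Shank1 went from 42.8% ± 0.349 to 39.8% ± 0.842 of the SHANK sum and Shank2 from 40.2% ± 0.922 to 43.2% ± 1.03 (SD, n = 3). Shank3 stood at 17.0% in both genotypes (exact permutation P = 1). Within SAPAP, Dlgap1 went from 16.2% to 13.4% and Dlgap2 from 2.23% to 1.59%, while the share of Dlgap3 (22.7% and 21.1%) overlapped between genotypes (exact permutation P = 0.2, adjusted P = 0.229).

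**Figure D4:**
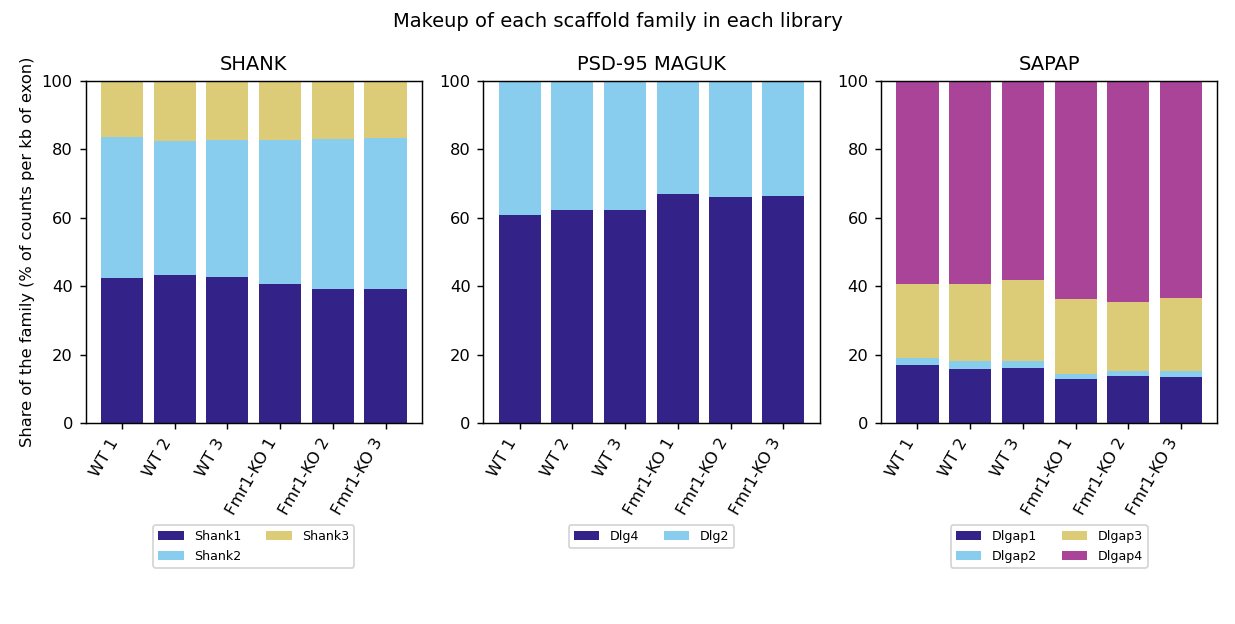
Share of each gene in the summed level of its family (counts per kb of exon), one bar per library. Dlgap4 takes 64.0% of SAPAP in Fmr1-KO and 58.9% in WT, Dlg4 66.5% and 61.8% of its pair, and Shank3 17.0% of SHANK in both.

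The layers that the scaffold joins were examined with lists of 57 related genes, of which 35 were lower, 7 were higher and 15 did not pass the threshold (median log2 fold-change -0.23). The counts of these lists stand beside 21.9% lower and 20.7% higher among all tested genes. Beneath SHANK, the Homer proteins link it to metabotropic glutamate receptors. Homer1 fell from 73.4 ± 1.40 to 53.9 ± 0.581 CPM (SD, n = 3, log2 fold-change -0.45) and Homer2 from 66.3 ± 1.08 to 53.6 ± 2.01 CPM (SD, n = 3, -0.31). Homer3 rose, from 38.2 ± 0.588 to 45.6 ± 1.30 CPM (SD, n = 3, 0.25). All 3 passed the threshold in edgeR.

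The other membrane-associated guanylate kinases, relatives of PSD-95 with wider roles in cell polarity and junctions, had counts near the shares over all tested genes (21.9% lower, 20.7% higher): 2 of 7 were lower, 2 were higher and 3 did not pass, with a median of 0.02. Dlg3 (SAP102), the relative of PSD-95 that is most prominent at young synapses, fell from 97.2 ± 2.60 to 74.4 ± 0.261 CPM (SD, n = 3), a log2 fold-change of -0.39 beside -0.36 for Dlg4. Cask, which works with neurexins on the presynaptic side and in transport, fell as well (-0.29). Magi1 (0.11, edgeR adjusted P 0.0121) was higher, as was Dlg1, the gene for SAP97, a close paralog of PSD-95 named after its values were seen (0.10, edgeR adjusted P 0.0233). Neither call held without WT replicate 1 (edgeR adjusted P 0.0646 and 0.0738) or without WT replicate 3 (0.0704 and 0.0542). That of Dlg1 was also lost without Fmr1-KO replicate 1 (0.0604) or Fmr1-KO replicate 2 (0.0917) and in DESeq2 (adjusted P 0.0529).

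Regulators of small GTPases that are anchored to the scaffold were lower in 7 of 9 genes and higher in 0, with a median of -0.18. Agap2, an Arf GTPase-activating protein, fell from 230.0 ± 8.29 to 164.8 ± 4.24 CPM (SD, n = 3, log2 fold-change -0.48), and the Arf exchange factor Iqsec2 fell by 0.34 on the log2 scale. Arhgef7 (beta-PIX), which binds SHANK, had a log2 fold-change of -0.07 and did not pass (edgeR adjusted P 0.0691).

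Other scaffold partners and actin linkers were lower in 9 of 14 genes and higher in 0, with a median of -0.31. One of the 9, Dynll1, named after its values were seen, had overlapping libraries and was not called in DESeq2 (adjusted P 0.180). The largest decrease was that of Ddn, which encodes dendrin, a dendritic protein of the postsynaptic density, at 29.5, 29.8 and 29.1 CPM in WT and 3.41, 3.00 and 3.39 CPM in Fmr1-KO (log2 fold-change -3.17, edgeR adjusted P 3.03e-17). Cnksr2, a scaffold that binds PSD-95, fell by 1.05 on the log2 scale, and Camk2b, which encodes the beta subunit of the calcium/calmodulin-dependent kinase of the spine, fell by 0.75. Drebrin (Dbn1), which binds actin in spines, was at 437.0 ± 10.8 and 433.8 ± 14.7 CPM (SD, n = 3) and did not pass (edgeR adjusted P 0.817).

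Receptors and adhesion proteins tied to the scaffold were lower in 12 of 17 genes and higher in 1, with a median of -0.30. The obligatory NMDA receptor subunit Grin1 fell from 90.6 ± 2.42 to 47.9 ± 1.58 CPM (SD, n = 3, log2 fold-change -0.92). Grm5, the metabotropic receptor that Homer joins to SHANK, fell from 104.2 ± 5.53 to 55.3 ± 2.27 CPM (SD, n = 3, -0.91). Of the subunits whose coding ends are printed above, Grin2a had a log2 fold-change of -0.81 and Grin2b one of -0.48, and both passed in edgeR. Gria2, an AMPA receptor subunit, was at 320.1, 349.6 and 311.5 CPM in WT and 337.6, 443.8 and 370.8 CPM in Fmr1-KO. Its libraries overlapped between genotypes, and the log2 fold-change of 0.23 passed in edgeR (adjusted P 0.00513) but not in DESeq2 (adjusted P 0.154).

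Both genes named here from the inhibitory synapse scaffold were lower. Gephyrin (Gphn), which clusters GABA-A and glycine receptors, had a log2 fold-change of -0.16 (edgeR adjusted P 0.00168), and Nlgn2, the neuroligin of inhibitory synapses, one of -0.27 (edgeR adjusted P 1.90e-07). Dlgap5, the SAPAP paralog with the unlike coding end, rose from 13.5 ± 0.623 to 21.6 ± 0.471 CPM (SD, n = 3, log2 fold-change 0.68, edgeR adjusted P 1.06e-08), beside the rise of all 8 proliferating cell markers.

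**Figure D5:**
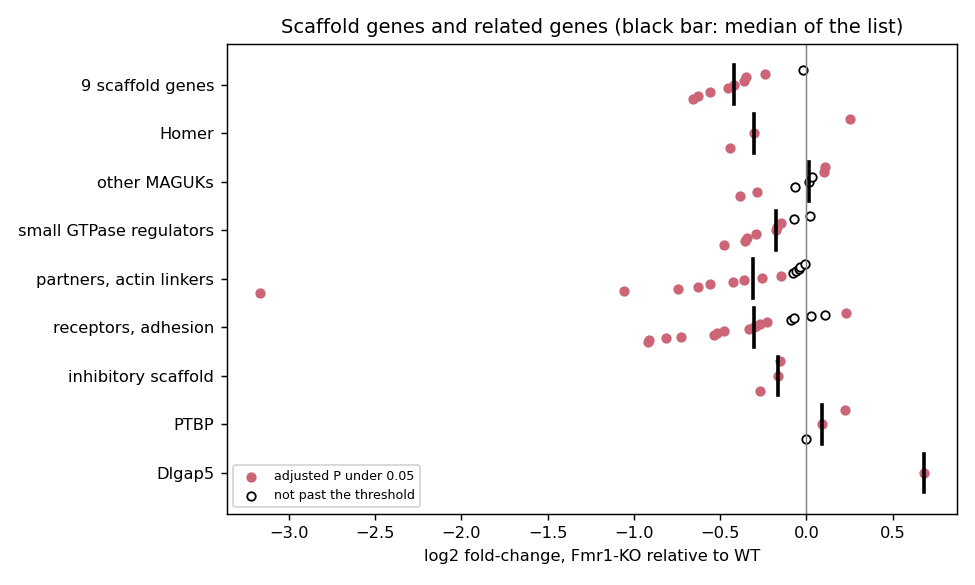
Log2 fold-change (Fmr1-KO relative to WT) of the 9 scaffold genes and of every gene of the related lists. Filled points passed an adjusted P of 0.05, open points did not, and black bars are list medians. The scaffold genes have a median of -0.42, Ddn stands alone at -3.17, and the other guanylate kinases lie on both sides of 0.

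The genes whose profile over the 6 libraries was nearest to that of Dlg2, which had the largest decrease of the 9 with all libraries included, were sought among the 10762 others whose mean reached 10 CPM. Nearness was the root-mean-square difference of log2 CPM after each gene was centred on its own mean. The 5 nearest were Fam169a (0.0202), Gnb4 (0.0257), Zdhhc2 (0.0276), Gpr12 (0.0282) and Neto1 (0.0305). Zdhhc2 encodes a palmitoyl transferase that acts on PSD-95, Neto1 an auxiliary protein of kainate receptors, Gnb4 a G protein beta subunit and Gpr12 an orphan receptor. Zdhhc2 was at 56.1, 57.7 and 55.9 CPM in WT and 33.3, 35.6 and 37.4 CPM in Fmr1-KO. Neto1 was at 50.6, 51.3 and 50.8 CPM in WT and 32.0, 34.1 and 33.3 CPM in Fmr1-KO. The 6 libraries differ mainly by genotype, so nearness here describes the size of the decrease and little else.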

How the data were processed

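Poly(A)+ RNA of 6 samples was sequenced from stranded libraries. The values deposited by the authors are unnormalized read counts for each gene. Per their methods, reads were trimmed with FastP, aligned with STAR to GRCm38 and assigned to exons by featureCounts with strand, summed by gene name. The labels give STAR 2.7.6a and Subread 2.0.1. Isoforms were not analysed here.

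Groups came from the labels. Genes were tested with edgeR 4.0.16 (filterByExpr, TMM, glmQLFit and glmQLFTest, genotype only, 2-sided, Benjamini-Hochberg over 16976 genes, threshold 0.05). SE is the size of the log2 fold-change divided by the square root of F. Exon lengths, coordinates and sequences came from GENCODE M21 (GRCm38), not the authors' release, and 98.6% of tested names matched. Scaffold genes, related lists and markers were chosen with earlier results of these data known. Named related genes were all of a list of 5 or fewer, otherwise the 3 largest called changes at a mean of at least 10 CPM and the 2 most abundant, and the 5 nearest profiles were named too. Some genes that this rule selects are not reported here. In simulated data for this comparison, 200 genes were changed 2-fold, with the same dispersion between replicates for every gene. Of those tested, 94.5% were recovered. The scaffold genes changed by less than 2-fold, and the recovery of such smaller changes was not simulated. Replicates were not duplicates (chi-square per degree of freedom 2.18 to 3.71).

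The alternatives were DESeq2 1.42.0, upper-quartile and RLE normalization, scaling by totals only, keeping every gene with a count, keeping genes at a mean of 10 counts and 5 CPM, a minimum fold change of 1.2, a replicate block and leaving out each library.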

Additional observations from a re-analysis of the deposited data

How the results depend on the processing

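The 8 lower scaffold genes kept their direction under every alternative that was run, and their call under each except the minimum fold change of 1.2, where Dlgap3 was not called. Leaving out each library in turn gave 8 lower and 0 higher scaffold genes each time, a median of -0.43 to -0.40, and 3300 to 3569 lower and 2969 to 3307 higher genes among all tested. With library totals alone the median of the 9 genes was -0.39, and Dlgap4 turned to 0.0069 (edgeR adjusted P 0.874). A minimum fold change of 1.2 left 1340 lower and 883 higher genes of all tested. The share of Shank3 in the SHANK sum changed sign without WT replicate 2 or 3 or without replicate 3 of Fmr1-KO, with differences of -0.327 to 0.258 percentage points. Among related genes that had not passed the threshold, Dbn1 turned to 3.94e-05 under upper-quartile scaling and to 0.0173 under totals alone, and ran from -0.0379 to 0.0106 when libraries were left out. Ptbp3 turned to 0.00753 and 0.0246 under those scalings and ran from -0.0354 to 0.0363, Kalrn from -0.0230 to 0.0448, Dlg5 from -0.0047 to 0.0339 and Nlgn1 from -0.0162 to 0.0512 when libraries were left out. The cause was not tested. Over the alternatives other than the minimum fold change of 1.2, which was not counted for related genes, a related gene lost its call in 15 instances and gained one in 2. The lost calls were those of Dlg1, Magi1, Dynll1, Gria2 and Ptbp2, and Dynll1 lost its call in DESeq2 (adjusted P 0.180), with totals alone (edgeR adjusted P 0.0547) and when replicate 2 of WT (0.180) or of Fmr1-KO (0.0894) was left out. Samples with the same replicate number did not deviate together (correlations -0.03, 0.03 and -0.01). This check cannot tell whether libraries of equal number were prepared together, which the labels do not say. A replicate block gave 3694 lower and 3488 higher genes and 8 lower scaffold genes, and changed no call among them. Depth limits mainly Dlgap2, which had 127 to 237 reads a library.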
